A study of Mus musculus with 12 samples.

Results

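The 6 genes followed here are those that mast cells use to sense their surroundings and to make histamine, measured in 12 wounds: Kit, Fcer1a, Ms4a2, Mrgprb2, Gata2 and Hdc. They were chosen by name from the 24062 genes of the deposited count tables, and all 6 were found there. RNA was taken from wounds in the back skin of C57BL/6 mice made diabetic with streptozotocin, a toxin that destroys the insulin-producing cells of the pancreas. Each library came from 1 mouse, and every group carried the diabetes and the wound. The groups were 3 mice labelled pre-MCS-01, 3 labelled post-MCS-01, 3 labelled DSCG and 3 labelled blank. MCS-01 is named as a mast cell stabilizer and is known here by its code name alone. DSCG is the common short form of disodium cromoglycate, an older mast cell stabilizer, although its label is not written out. The labels do not say what pre and post refer to, and give no dose, time, age or sex. Blank was taken as the control. The question behind the comparisons was how a compound aimed at mast cells alters the wound, and these genes are those cells' own receptors, regulator and histamine enzyme.

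A mast cell is a tissue-resident granulocyte that stores histamine and proteases in granules and empties them when its surface receptors are engaged. Kit is the receptor for stem cell factor, on which mast cells depend for survival. Fcer1a and Ms4a2 encode the alpha and beta chains of the high-affinity IgE receptor, and Mrgprb2 encodes the mouse receptor through which basic peptides and several drugs trigger degranulation without IgE. Gata2 is a transcription factor needed for mast cell identity, and Hdc is histidine decarboxylase, the enzyme that makes histamine. Of the 6, 3 have other well-known users in skin: Kit in melanocytes, Gata2 in endothelium and Hdc in neutrophils and other myeloid cells. The IgE receptor chains are shared with basophils.

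In GENCODE M21 on GRCm38 (the same assembly as mm10), Kit lies at chr5:75574916-75656722 on the plus strand and Gata2 at chr6:88193891-88207032 on the plus strand. The minus strand carries Fcer1a at chr1:173221284-173227214, Ms4a2 at chr19:11615523-11623719, Mrgprb2 at chr7:48550965-48558086 and Hdc at chr2:126593667-126619299. No other annotated gene overlapped any of the 6 on either strand in that annotation.

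Because Gata2 is itself one of the 6 genes, the promoters of all 6 were searched for the letters that GATA factors bind. The 6 genes all had a window from 250 bases before to 50 bases after the start site in the RefSeq promoter table (build GRCm38.p6). The letters searched, on both strands, were AGATAA and its forms with T as the first letter, G as the last letter, or both. Ms4a2 held 3 matches, Fcer1a, Mrgprb2 and Hdc held 1 each, and the 2 windows of Kit and the 2 of Gata2 held none. Of all 32544 windows in the table, 29.6% held at least 1 match. The windows of Ms4a2 (chr19:11623670-11623969), Fcer1a (chr1:173227180-173227479) and Hdc (chr2:126618629-126618928), all on the minus strand, are shown 5′ to 3′ because Ms4a2 held the most matches, Fcer1a is its partner chain in the IgE receptor and Hdc is the histamine enzyme. Capitals mark the GATA letters or their reverse complement.
Ms4a2: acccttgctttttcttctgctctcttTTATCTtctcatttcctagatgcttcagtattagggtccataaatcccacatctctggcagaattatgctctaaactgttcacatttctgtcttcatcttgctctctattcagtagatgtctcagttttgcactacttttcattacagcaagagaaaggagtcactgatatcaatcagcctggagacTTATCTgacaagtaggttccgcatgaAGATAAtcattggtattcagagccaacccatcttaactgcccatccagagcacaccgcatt
Fcer1a: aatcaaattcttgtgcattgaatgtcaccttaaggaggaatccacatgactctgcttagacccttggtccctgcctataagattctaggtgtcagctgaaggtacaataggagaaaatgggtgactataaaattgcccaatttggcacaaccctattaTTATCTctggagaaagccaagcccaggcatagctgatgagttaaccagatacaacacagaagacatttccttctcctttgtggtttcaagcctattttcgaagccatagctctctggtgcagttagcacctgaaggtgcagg
Hdc: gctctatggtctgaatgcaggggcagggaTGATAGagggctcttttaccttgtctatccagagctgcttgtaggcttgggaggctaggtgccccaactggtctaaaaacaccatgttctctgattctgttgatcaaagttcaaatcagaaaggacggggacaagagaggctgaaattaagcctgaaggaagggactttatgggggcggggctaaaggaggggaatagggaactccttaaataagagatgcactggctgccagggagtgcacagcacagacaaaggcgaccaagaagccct
Counted from the start site, the matches began at -224, -37 and -11 in Ms4a2. The single match began at -92 in Fcer1a, at -48 in Mrgprb2 and at -221 in Hdc. The Hdc window lies wholly inside the GENCODE bounds of the gene, whose 5′ end is at 126619299. Its position of -221 is therefore counted from a RefSeq start site downstream of that end. A match of letters is not evidence that a factor sits there.

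Depth and library quality bear on all that follows. Gene counts per library ran from 37702643 to 50461867 in 11 libraries, and the third blank library held 3835042. Levels are given as CPM, the counts of a gene scaled to a common library total. A gene with no count could reach 0.782 CPM in that library (3 counts), and between 0.0595 and 0.0796 CPM in the others. Long transcripts were low in 3 libraries, the second of pre-MCS-01, the second of DSCG and the third of blank: there, counts relative to the mean library fell with exon length across genes (Spearman's rho -0.417, -0.340 and -0.363), against -0.0713 to 0.381 in the other 9. Keratin and collagen genes of skin were abundant in all 12, with Krt5 between 4978 and 8526 CPM. Across all 16267 genes tested with edgeR's quasi-likelihood test, 134 passed an adjusted p (Benjamini-Hochberg) under 0.05 between pre-MCS-01 and post-MCS-01 wounds and 172 between post-MCS-01 and DSCG wounds, and none in the other 4 comparisons, where 1178 (pre-MCS-01 against blank), 1521 (post-MCS-01 against blank), 167 (DSCG against blank) and 384 (pre-MCS-01 against DSCG) had an unadjusted p under 0.05.

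All 6 genes had counts in every library and entered the test. Per kilobase of the principal mRNA, the mean level over the 12 wounds was 23.0 CPM for Hdc, 2.98 for Kit, 2.74 for Gata2, 2.61 for Fcer1a, 1.17 for Ms4a2 and 0.435 for Mrgprb2. Between wounds, Hdc spanned a 65.9-fold range in CPM, whereas the other 5 spanned 3.33-fold (Mrgprb2) to 4.59-fold (Gata2). None of the 6 genes passed edgeR's test in any comparison. The count was 0 of 6 in pre-MCS-01 against blank, post-MCS-01 against blank, DSCG against blank and pre-MCS-01 against DSCG wounds (0.0% of all genes tested passed in each), 0 of 6 in pre-MCS-01 against post-MCS-01 wounds (0.824% of all genes), 0 of 6 in post-MCS-01 against DSCG wounds (1.06% of all genes), and 0 of 6 in the joint test of any difference among the 4 groups (0.0% of all genes). DESeq2 also called 0 of 6 in each, where it called 0.418% of all genes in pre-MCS-01 against blank, 2.5% in post-MCS-01 against blank, 0.0% in DSCG against blank, 2.63% in pre-MCS-01 against post-MCS-01, 0.105% in pre-MCS-01 against DSCG, 3.81% in post-MCS-01 against DSCG wounds and 3.48% jointly. Limma-voom, which called between 0 and 2 genes of all, also called 0 of 6 in each. At an unadjusted p under 0.05, edgeR's count was 1 of 6 in pre-MCS-01 against blank wounds (Mrgprb2; 7.24% of all genes), 2 of 6 in pre-MCS-01 against post-MCS-01 wounds (Kit and Gata2; 10.2% of all genes), 1 of 6 in post-MCS-01 against DSCG wounds (Kit; 11.3% of all genes) and 1 of 6 in the joint test (Kit; 8.42% of all genes). It was 0 of 6 in post-MCS-01 against blank (9.35% of all genes), DSCG against blank (1.03%) and pre-MCS-01 against DSCG wounds (2.36%).

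**Figure D1:**
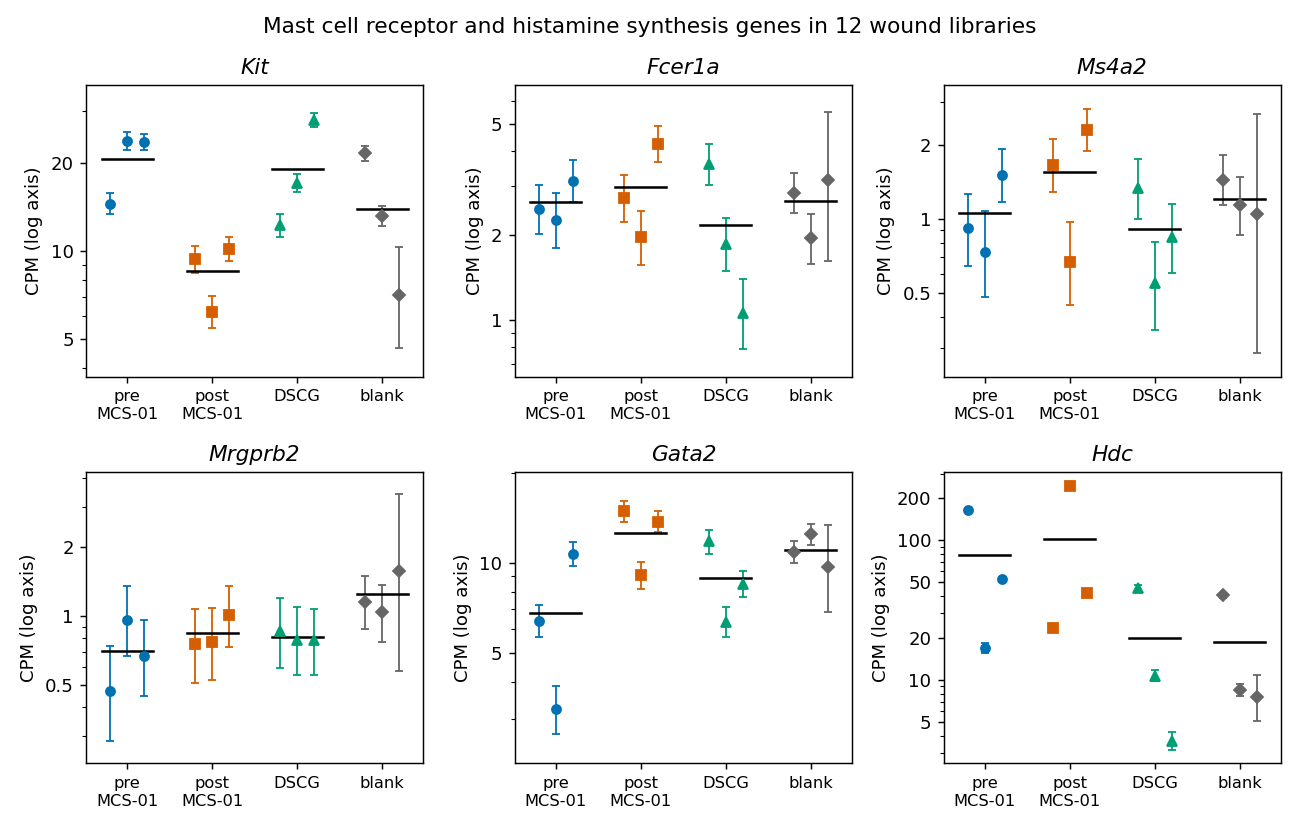
Level of each gene in CPM (log axis) in the 12 wounds, with groups along the x axis, 1 point per mouse, bars for the 95% Poisson counting interval and a black line for the group mean. For Kit, post-MCS-01 wounds (6.21 to 10.2 CPM) lie below every pre-MCS-01 and DSCG wound, while the third blank wound (7.07 CPM) falls within their range. Blank wounds lie highest for Mrgprb2 (1.04 to 1.57 CPM), and Hdc scatters over 3.68 to 243 CPM.

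Kit was the one surface receptor whose post-MCS-01 wounds sat apart from 2 other groups. Its level was 14.5, 23.7 and 23.5 CPM in pre-MCS-01 wounds, 9.37, 6.21 and 10.2 CPM in post-MCS-01 wounds, 12.3, 17.1 and 27.9 CPM in DSCG wounds and 21.5, 13.1 and 7.07 CPM in blank wounds. Every post-MCS-01 wound lay below every pre-MCS-01 wound and every DSCG wound, while the blank wounds overlapped all 3 other groups. The overlap of blank with post-MCS-01 wounds rested on the third blank wound alone. That value came from 27 counts in the shallowest library, with a Poisson interval of 4.66 to 10.3 CPM. The group means were 20.6 ± 5.26 CPM in pre-MCS-01 wounds and 8.58 ± 2.09 CPM in post-MCS-01 wounds (SD, n = 3 each), a 2.40-fold difference with a 95% interval of 1.29 to 4.46. The log2 fold change was 1.26 ± 0.41 (SE), and edgeR's adjusted p was 0.291 (unadjusted p 0.00991). Post-MCS-01 against DSCG wounds (19.1 ± 8.03 CPM) gave a log2 fold change of -1.15 ± 0.41 with an adjusted p of 0.279 by edgeR (-0.76 without DSCG replicate 3), and the 2 comparisons share the post-MCS-01 wounds. Groups that do not overlap were common: 17.7% of all genes in pre-MCS-01 against post-MCS-01 and 15.4% in post-MCS-01 against DSCG wounds. In pre-MCS-01 against DSCG wounds, 5.12% of all genes and 0 of the 6 did not overlap. Against blank wounds, the log2 fold change of Kit was 0.53 ± 0.41 in pre-MCS-01, -0.73 ± 0.41 in post-MCS-01 and 0.42 ± 0.41 in DSCG wounds, with adjusted p of 0.765, 0.646 and 0.999. These values moved with single libraries: leaving out 1 at a time gave 0.25 (without blank replicate 3) to 0.95 (without blank replicate 1) in pre-MCS-01, -1.02 (without blank replicate 3) to -0.26 (without blank replicate 1) in post-MCS-01 and 0.0470 (without DSCG replicate 3) to 0.86 (without blank replicate 1) in DSCG wounds. Leaving out the 3 libraries low in long transcripts gave 1.12 for pre-MCS-01 against post-MCS-01 and -1.22 for post-MCS-01 against DSCG wounds.

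Genes of pigment cells and of the hair follicle differed in level in the same comparisons as Kit, and their part in its differences was not tested. All 10 melanocyte genes had a fitted log2 fold change above 0 in pre-MCS-01 against post-MCS-01 wounds, with a median of 3.73 against 0.03 over all genes. None of the 10 passed the test, and 8 had an unadjusted p under 0.05. Their summed level ran from 208 to 921 CPM in pre-MCS-01, 41.1 to 99.4 CPM in post-MCS-01, 133 to 467 CPM in DSCG and 119 to 263 CPM in blank wounds. Pmel, a structural protein of pigment granules, averaged 115 ± 94.3 CPM in pre-MCS-01 wounds and 8.67 ± 4.68 CPM in post-MCS-01 wounds (SD, n = 3 each), and Oca2, Tyr, Slc45a2 and Gpr143, which act in melanin synthesis, had fitted log2 differences of 5.99, 3.74, 4.34 and 4.58. Of 17 hair follicle genes, 13 were called higher in pre-MCS-01 than post-MCS-01 wounds and 15 lower in post-MCS-01 than DSCG wounds. Their summed level was 13387 to 33267 CPM in pre-MCS-01, 89.2 to 125 CPM in post-MCS-01, 2135 to 42622 CPM in DSCG and 7078 to 21083 CPM in blank wounds. In bulk tissue, fewer cells of a type and less RNA per cell cannot be told apart.

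Neither chain of the IgE receptor set any group apart from another. Fcer1a measured 2.49, 2.27 and 3.13 CPM in pre-MCS-01 wounds, 2.72, 1.97 and 4.25 CPM in post-MCS-01 wounds, 3.60, 1.87 and 1.06 CPM in DSCG wounds and 2.84, 1.95 and 3.14 CPM in blank wounds. Ms4a2 was at 0.920, 0.739 and 1.52 CPM in pre-MCS-01 wounds, 1.66, 0.672 and 2.32 CPM in post-MCS-01 wounds, 1.34, 0.549 and 0.847 CPM in DSCG wounds and 1.45, 1.14 and 1.05 CPM in blank wounds. All 4 groups overlapped in both genes, and the third post-MCS-01 wound was the highest of the 12 in each. The largest fitted difference in this pair was that of Ms4a2 in post-MCS-01 against DSCG wounds, 0.77 ± 0.48 on the log2 scale with an adjusted p of 0.599 by edgeR, and it ranged from 0.36 (without post-MCS-01 replicate 3) to 1.15 (without post-MCS-01 replicate 2) when 1 library was left out. For Fcer1a in pre-MCS-01 against blank wounds the fold was 1.02 with a 95% interval of 0.514 to 2.02, so true differences inside that interval remain compatible with the data. Ms4a2 in the third blank library rested on 4 counts, with a Poisson interval of 0.286 to 2.68 CPM.

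Mrgprb2 was the faintest of the 6, and blank wounds held the most of it. Its level was 0.472, 0.966 and 0.667 CPM in pre-MCS-01 wounds, 0.756, 0.768 and 1.01 CPM in post-MCS-01 wounds, 0.861, 0.791 and 0.783 CPM in DSCG wounds and 1.16, 1.04 and 1.57 CPM in blank wounds. Each blank wound lay above each of the other 9, the closest pair being 1.01 CPM in a post-MCS-01 wound and 1.04 CPM in a blank wound. The log2 fold change against blank was -0.77 ± 0.35 in pre-MCS-01, -0.50 ± 0.35 in post-MCS-01 and -0.56 ± 0.35 in DSCG wounds, with edgeR's adjusted p of 0.688, 0.748 and 0.999. These 3 comparisons share the blank wounds. Groups did not overlap for 14.4% of all genes in pre-MCS-01 against blank, 18.4% in post-MCS-01 against blank and 3.68% in DSCG against blank wounds. The highest blank value came from 6 counts in the shallow library, with a Poisson interval of 0.577 to 3.42 CPM, and leaving out that library gave -0.65 for pre-MCS-01 against blank wounds. Leaving out each library in turn gave -1.06 to -0.55 in pre-MCS-01, -0.66 to -0.38 in post-MCS-01 and -0.69 to -0.44 in DSCG against blank wounds.

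Gata2 was lowest in the pre-MCS-01 wounds on average. It measured 6.41, 3.24 and 10.7 CPM in pre-MCS-01 wounds, 14.9, 9.07 and 13.7 CPM in post-MCS-01 wounds, 11.8, 6.35 and 8.49 CPM in DSCG wounds and 10.9, 12.5 and 9.69 CPM in blank wounds. The second pre-MCS-01 wound, one of the libraries low in long transcripts, was the lowest of the 12, and the groups overlapped in 6 of 6 comparisons. The means were 6.78 ± 3.73 CPM in pre-MCS-01 wounds and 12.5 ± 3.07 CPM in post-MCS-01 wounds (SD, n = 3 each), a log2 fold change of -0.89 ± 0.39 with an adjusted p of 0.477 by edgeR (unadjusted p 0.0432). Without that library the difference was -0.55, without pre-MCS-01 replicate 3 it was -1.43, and without all 3 such libraries -0.58. Pre-MCS-01 against blank wounds (11.003 ± 1.39 CPM) gave -0.71 ± 0.39 with an adjusted p of 0.720, and -1.23 without pre-MCS-01 replicate 3 or -0.37 without replicate 2 of the same group.

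Hdc, the histamine enzyme, differed from wound to wound more than any other of the 6. It measured 166, 16.99 and 52.7 CPM in pre-MCS-01 wounds, 23.5, 243 and 41.7 CPM in post-MCS-01 wounds, 45.9, 10.7 and 3.68 CPM in DSCG wounds and 40.2, 8.48 and 7.599 CPM in blank wounds. Every MCS-01 wound exceeded the lower 2 wounds of both the DSCG and the blank group, and in each of those groups 1 wound lay within the MCS-01 range. The means were 78.4 ± 77.5 CPM in pre-MCS-01, 103 ± 122 CPM in post-MCS-01, 20.1 ± 22.6 CPM in DSCG and 18.8 ± 18.6 CPM in blank wounds (SD, n = 3 each), with SDs as large as the means or nearly so in each group. The fitted fold over blank was 4.07 in pre-MCS-01 (95% interval 0.698 to 23.7) and 5.33 in post-MCS-01 wounds (0.893 to 31.8), with adjusted p of 0.724 and 0.568. On the log2 scale these were 2.03 ± 1.16 and 2.41 ± 1.18, and DSCG against blank wounds gave 0.06 ± 1.12. Against DSCG wounds Hdc differed by 1.97 ± 1.15 in pre-MCS-01 and 2.36 ± 1.17 in post-MCS-01 wounds, with adjusted p of 0.9998 and 0.485 by edgeR, and the differences were 0.80 with the first pre-MCS-01 wound left out and 0.71 with the second post-MCS-01 wound left out. The differences from blank moved by over 1.5 times when single libraries were left out. Without pre-MCS-01 replicate 1 the pre-MCS-01 difference from blank was 0.86, without post-MCS-01 replicate 2 the post-MCS-01 difference was 0.79, and without blank replicate 1 the same differences were 3.24 and 3.64.

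**Figure D2:**
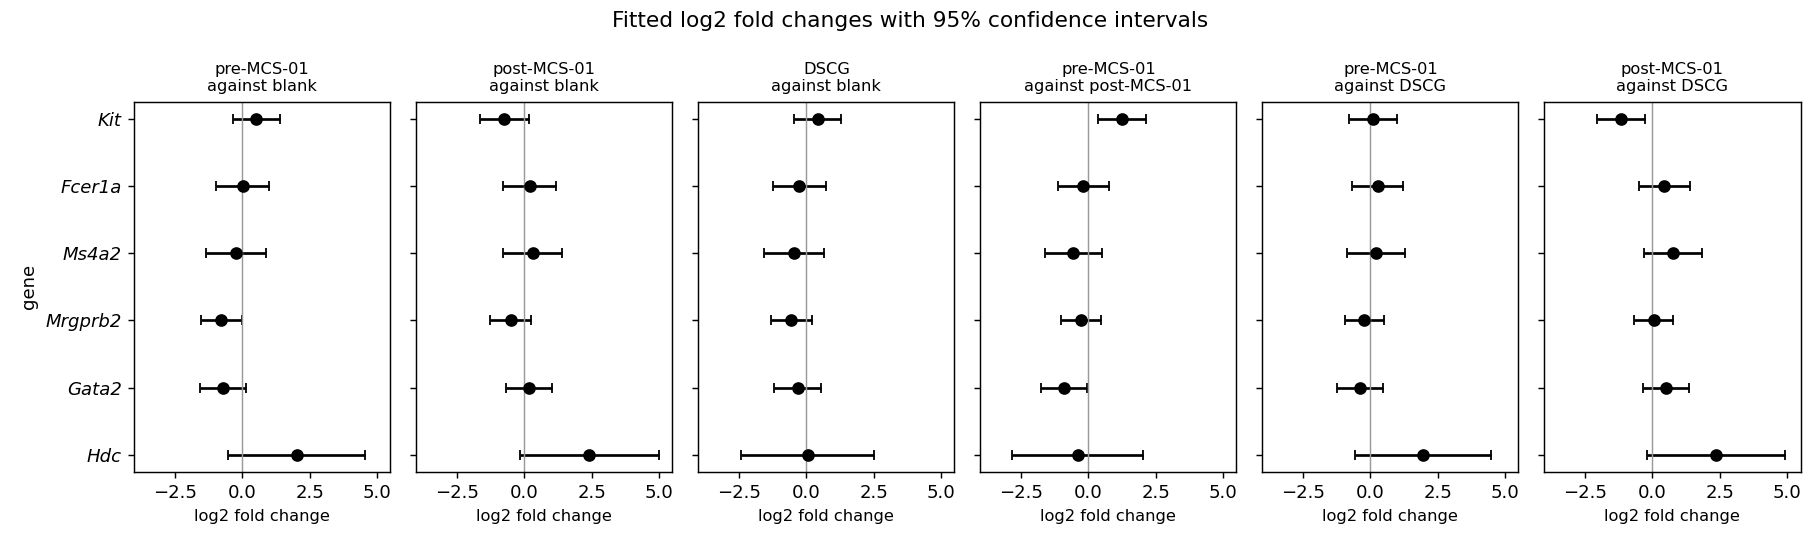
Fitted log2 fold change of each of the 6 genes (rows) in the 6 comparisons (panels), with 95% confidence intervals and a grey line at 0. The intervals of Kit lie off 0 in the panels of pre-MCS-01 against post-MCS-01 and post-MCS-01 against DSCG, as do narrowly those of Mrgprb2 in pre-MCS-01 against blank and Gata2 in pre-MCS-01 against post-MCS-01, while those of Hdc reach from -2.83 to 4.99 over the panels.

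One alternative test called some of the 6 genes. With limma-voom and library quality weights, which let noisy libraries count for less, 3 of 6 passed in pre-MCS-01 against blank wounds (15.3% of all genes passed) and 3 of 6 in pre-MCS-01 against post-MCS-01 wounds (23.5% of all genes). In the first, Mrgprb2 had a log2 fold change of -1.13, Gata2 -0.81 and Hdc 2.79, with adjusted p of 0.0166, 0.0335 and 0.0456. In the second, Kit had 0.76, Mrgprb2 -0.65 and Gata2 -1.11, with adjusted p of 0.0479, 0.0479 and 0.00457. The joint test called 2 of 6, Mrgprb2 and Gata2 (13.5% of all genes). In post-MCS-01 against blank wounds it called 0 of 6 (5.08% of all genes), and 0 of 6 in the other 3 comparisons (0.0% of all genes in each). None of the 6 genes was called under the other scalings, without the filter, or when libraries were left out.

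Whether the 6 genes rose and fell together from wound to wound was asked with correlations of log2 CPM over the 12 libraries. Of 15 pairs, 0 passed an adjusted p under 0.05 for Pearson's r (permutation test, two-sided, 100000 resamples). Fcer1a and Ms4a2, which form one receptor, had an r of 0.695 and a Spearman's rho of 0.727 (permutation p 0.0110 and 0.0102, adjusted 0.0827 and 0.0763), and an r of 0.726 without the 2 wounds farthest from the median. Ms4a2 and Gata2 had an r of 0.727 (adjusted permutation p 0.0827) and a rho of 0.860 (adjusted 0.0103), and an r of 0.704 without the farthest 2. Within groups, as deviations from the group means, these pairs had r of 0.652 and 0.785 (adjusted exact permutation p 0.593 and 0.104). Hdc and Gata2 had an r of 0.0491 over the 12 libraries. Kit was there below 0 with each of the other 5 genes, from -0.413 with Gata2 to -0.111 with Ms4a2. Within groups the sign of Kit was mixed, from -0.353 with Hdc to 0.288 with Ms4a2, and 0.0512 with Gata2.

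**Figure D3:**
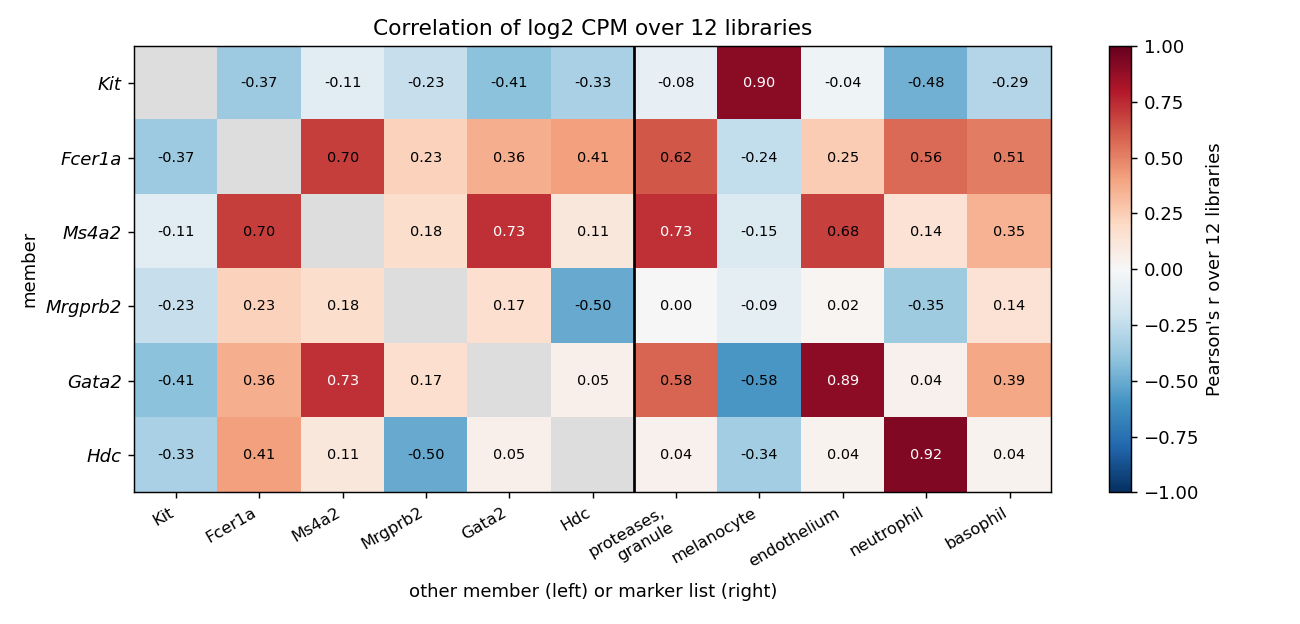
Pearson's r of log2 CPM over 12 libraries between the 6 genes (rows) and each other or the mean of 5 marker lists (columns, lists right of the black line), with red above 0 and blue below. The darkest cells are Kit with melanocyte genes (0.90), Gata2 with endothelial genes (0.89) and Hdc with neutrophil genes (0.92).

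Of 30 pairs of a gene and a marker list, 3 passed for Pearson's r. The hair follicle list, which differed in the same comparisons as Kit, was not among the lists correlated. Nor was the macrophage list, whose gene Cd14 had r = 0.983 with Hdc over the 12 libraries. Kit followed the melanocyte list, with r = 0.904 and rho = 0.909 (permutation p 3e-05, adjusted 0.00045 for r and 0.0012 for rho) and r = 0.837 without post-MCS-01 replicate 2 and DSCG replicate 3. Hdc followed the neutrophil list, with r = 0.924 and rho = 0.944 (permutation p 1e-05, the smallest 100000 resamples can give, adjusted 0.0003 for r and 0.0012 for rho) and r = 0.920 without the same 2 wounds. Gata2 followed the endothelial list, with r = 0.891 (permutation p 0.00059, adjusted 0.0059) and rho = 0.727 (adjusted 0.0700), but r was 0.691 without pre-MCS-01 replicate 2 and DSCG replicate 2 and 0.735 (adjusted permutation p 0.0829) without the first alone. Since part of this variation lies between groups, deviations from the group means were tested in the same way over all 1296 orders within groups. Hdc with neutrophil genes then had r = 0.882, Gata2 with endothelial genes 0.914 and Kit with melanocyte genes 0.822, with adjusted exact permutation p of 0.0309, 0.0309 and 0.0521. Ms4a2 with endothelial genes, at r = 0.680 over 12 wounds (adjusted permutation p 0.0775), had r = 0.786 within groups (adjusted exact permutation p 0.0309) and 0.728 under total-count scaling (adjusted permutation p 0.0359). Without the 3 libraries low in long transcripts, r was 0.977 for Kit, 0.942 for Hdc and 0.756 for Gata2 (n = 9, adjusted permutation p 0.0006, 0.00105 and 0.0546), and Mrgprb2 with endothelial genes had r = 0.784 (adjusted permutation p 0.0408).

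No gene correlated with the list of mast cell proteases and granule genes past the threshold over 12 wounds. The r of that list was 0.730 with Ms4a2, 0.618 with Fcer1a and 0.583 with Gata2 (adjusted permutation p 0.0579, 0.146 and 0.172), against -0.0848 with Kit, 0.0430 with Hdc and 0.000655 with Mrgprb2 (adjusted permutation p 0.972, 0.972 and 0.999). Without the 3 libraries low in long transcripts, r was 0.938 with Ms4a2, 0.790 with Fcer1a and 0.791 with Gata2 (n = 9, adjusted permutation p 0.0039, 0.0408 and 0.0408). Of the 12 wounds, leaving out the 2 farthest from each gene's median gave 0.882 with Ms4a2, 0.286 with Fcer1a and 0.780 with Gata2. Within groups r was 0.766 with Ms4a2, 0.682 with Fcer1a and 0.602 with Gata2 (adjusted exact permutation p 0.274, 0.301 and 0.274). The list holds Srgn, a proteoglycan of many blood cells, and with Srgn left out, an alternative chosen after the data were seen, the r of Ms4a2 and Fcer1a over 12 wounds was 0.663 and 0.493. The differences between these correlations were not tested. Over 12 wounds no gene followed the basophil list past the threshold, with r of 0.514 for Fcer1a, 0.348 for Ms4a2 and 0.387 for Gata2. Without the 3 libraries low in long transcripts these were 0.807, 0.795 and 0.777 (n = 9, adjusted permutation p 0.0408, 0.0408 and 0.0422), and that of Fcer1a was 0.429 when the 2 wounds farthest from the median were also left out. The basophil list shares Cpa3, a carboxypeptidase of mast cell granules, with the protease list, and its part in these correlations was not tested. The basophil list's defining genes, proteases of basophils, were low in all 12 wounds, Mcpt8 between 0.101 and 0.705 CPM and Prss34 between 0.127 and 0.637 CPM.

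**Figure D4:**
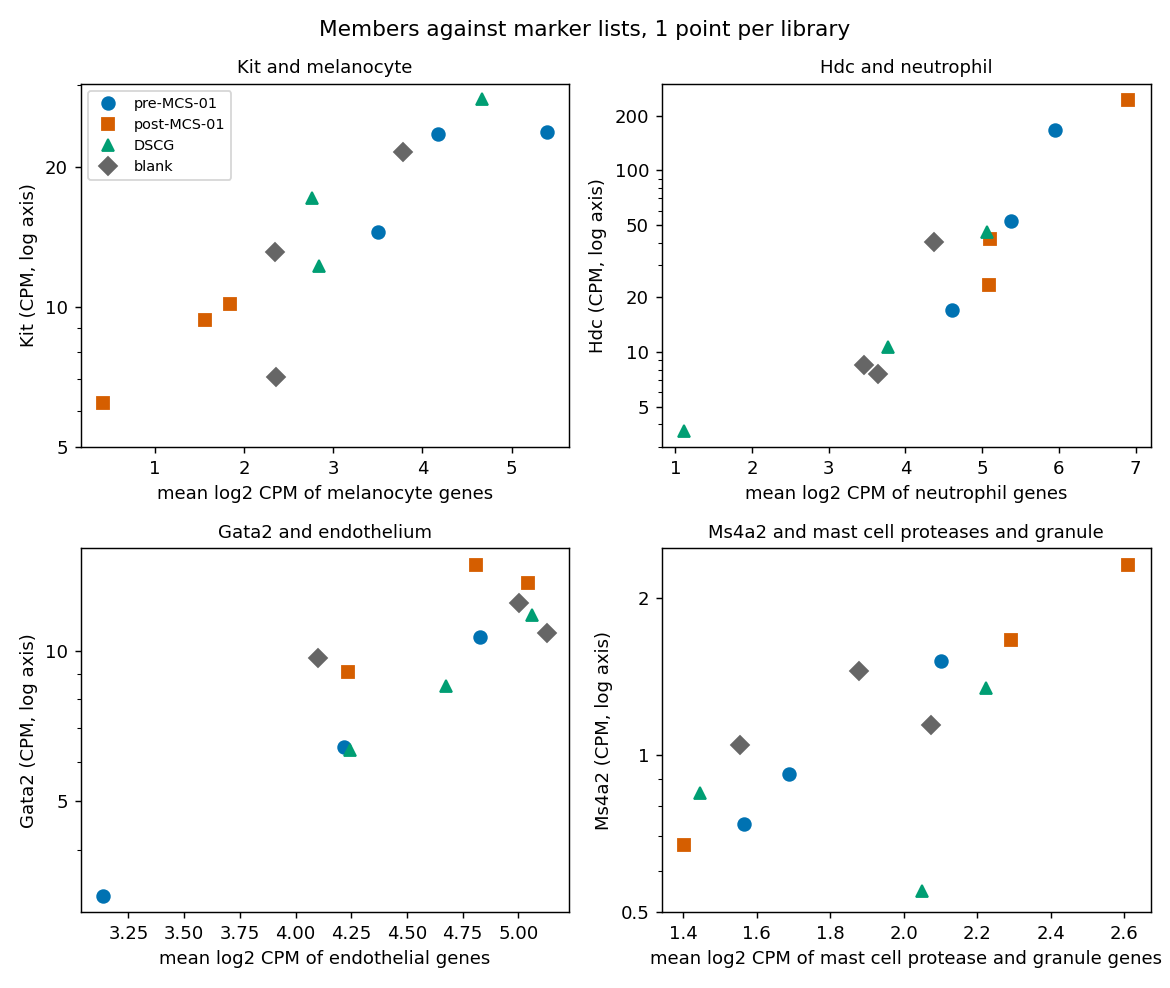
Level of Kit, Hdc, Gata2 and Ms4a2 (CPM, log axis) against the mean log2 CPM of a marker list, 1 point per wound with shape and colour for the group. Kit rises with melanocyte genes (r = 0.904), Hdc with neutrophil genes (r = 0.924), Gata2 with endothelial genes (r = 0.891) and the r of Ms4a2 with mast cell protease and granule genes is 0.730.

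Neutrophil genes lay higher in the same groups as Hdc by their fitted values, and their part in its differences was not tested. All 10 tested genes of that list had a positive fitted difference from blank in pre-MCS-01 and in post-MCS-01 wounds, with medians of 1.11 and 2.02 on the log2 scale (0.04 and -0.01 over all genes), and 0 of 10 passed in either, with 2 in pre-MCS-01 and 4 in post-MCS-01 wounds at an unadjusted p under 0.05. Their summed level was 4282 to 6701 CPM in pre-MCS-01, 4792 to 10803 CPM in post-MCS-01, 61.6 to 3877 CPM in DSCG and 681 to 1049 CPM in blank wounds. By group means, most of this sum came from S100a9 and S100a8. S100a9 averaged 3123 ± 670 CPM in pre-MCS-01, 4415 ± 2057 CPM in post-MCS-01, 959 ± 1232 CPM in DSCG and 448 ± 126 CPM in blank wounds (SD, n = 3 each). Mmp8 of the same list differed little between pre-MCS-01 (3.75 ± 2.90 CPM) and blank wounds (3.21 ± 0.453 CPM). It averaged 6.48 ± 3.44 CPM in post-MCS-01 and 1.24 ± 0.311 CPM in DSCG wounds. S100a8, a calcium-binding protein abundant in neutrophils, averaged 1716 ± 591 CPM in pre-MCS-01, 2067 ± 824 CPM in post-MCS-01, 499.5 ± 641 CPM in DSCG and 243 ± 78.3 CPM in blank wounds (SD, n = 3 each), and Lcn2, an antibacterial secreted protein, was at 146 ± 22.3 CPM in pre-MCS-01, 357 ± 130 CPM in post-MCS-01, 62.3 ± 51.8 CPM in DSCG and 68.3 ± 26.3 CPM in blank wounds. The endothelial list, beside Gata2, had a median of -0.50 in pre-MCS-01 against post-MCS-01 wounds, with 12 of 12 fitted differences below 0, 0 called and 0 at an unadjusted p under 0.05. Its summed level was 144 to 456 CPM in pre-MCS-01, 306 to 541 CPM in post-MCS-01, 320 to 544 CPM in DSCG and 275 to 547 CPM in blank wounds, and its part in the level of Gata2 was not tested. Lymphatic endothelium also uses Gata2, and of its 4 tested genes 1 was called: Lyve1, a hyaluronan receptor, was lower in pre-MCS-01 than post-MCS-01 wounds (10.1 ± 1.95 CPM in pre-MCS-01 wounds against 30.4 ± 8.84 CPM in post-MCS-01 wounds, SD, n = 3 each, adjusted p 0.0313 by edgeR).

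The amount of each gene per unit of mast cell protease message was then compared, using Cpa3, a carboxypeptidase of mast cell granules, a yardstick chosen after the values were seen. Reads of Hdc per read of Cpa3 spanned 0.235 to 21.7 over the 12 wounds, a 92.7-fold range. Kit spanned 0.386 to 1.78, a 4.61-fold range. The remaining 4 genes spanned 2.78-fold (Ms4a2), 2.79-fold (Fcer1a), 2.88-fold (Mrgprb2) and 3.53-fold (Gata2). The highest ratio of Mrgprb2, 0.0909 in the third blank wound, rested on 6 counts, and the next highest was 0.0687 in the second post-MCS-01 wound. The proteases Cma1, Mcpt4 and Tpsb2 spanned 2.01- to 2.38-fold. Of the protease and granule list, only these and Srgn were set against Cpa3. Ratios of its other genes were not taken, among them Tpsg1 (0.273 to 1.64 CPM over the 12 wounds), Ctsg (0.0960 to 0.643 CPM) and Mcpt2 (0.0480 to 0.666 CPM). On the log2 scale the SD of the ratio was 1.94 for Hdc, 0.79 for Kit and 0.36 for Ms4a2. Srgn, with 24.9-fold, was the other gene of the compared set with a wide range.

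**Figure D5:**
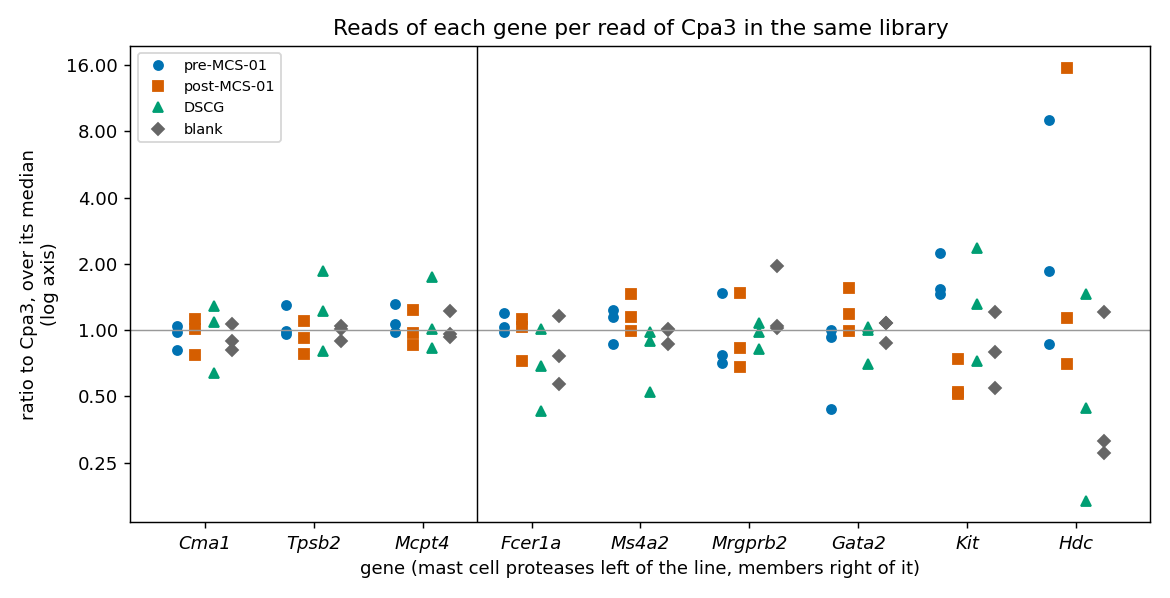
Reads of each gene per read of Cpa3 in the same library, divided by the median of the 12 libraries (log axis), for 3 mast cell proteases and the 6 genes, 1 point per wound. The proteases spread over 2.01- to 2.38-fold and Ms4a2 over 2.78-fold, whereas Hdc spreads over 92.7-fold, with 1 post-MCS-01 and 1 pre-MCS-01 wound at the top.

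For each gene the 5 most similar patterns over the 12 libraries were listed by Pearson's r among about 13515 tested genes with a mean of at least 1 CPM, as a description without a test. Those of Hdc were Srgn, Cd14, Nlrp3, Il1b and Osm, with r from 0.978 to 0.984. Cd14 is a receptor for bacterial lipopolysaccharide, Nlrp3 is an inflammasome sensor, and Il1b and Osm are inflammatory cytokines. Il1b was at 347, 36.8 and 105 CPM in pre-MCS-01 wounds, 40.7, 554 and 59.2 CPM in post-MCS-01 wounds, 72.4, 12.4 and 1.52 CPM in DSCG wounds and 98.6, 4.55 and 8.65 CPM in blank wounds, so its highest 2 wounds were the highest 2 of Hdc. The patterns nearest to Gata2 were Cbfa2t3, Tnfrsf11a, Sgsh, Rasa3 and Tal1, with r from 0.952 to 0.990, of which Tal1 is a transcription factor of blood cell development. Those nearest to Kit were Fads2, Gdpd5, Nup210, Cps1 and Cdc14a, with r from 0.961 to 0.966, and Fads2 is a fatty acid desaturase. Fcer1a was nearest to Trim30d, Arl5c, Ifi47, Cd300a and Ccl5 (r 0.868 to 0.8996), where Cd300a is an inhibitory receptor also found on mast cells. Ms4a2 was nearest to Slamf8, Snx1, Prr16, Casp12 and Rilpl1 (r 0.892 to 0.936), and Mrgprb2, the faintest gene, to Fez1, Nub1, Ackr4, Ctbs and Pepd (r 0.821 to 0.883). No gene was shared between the 6 lists.

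The partners of these receptors were counted in lists, and in edgeR's test 0 of 17 genes of IgE receptor signalling, 0 of 14 genes of Kit ligand and signalling and 0 of 10 other mast cell transcription factors passed in any of the 6 comparisons. At an unadjusted p under 0.05 the lists had at most 3, 3 and 2 genes in a comparison. In IgE receptor signalling the median log2 fold change was -0.58 in pre-MCS-01 against post-MCS-01 wounds (0.03 over all genes) and 0.50 in post-MCS-01 against DSCG wounds (-0.01 over all genes), with 1 of 17 above 0 in the first and 16 of 17 above 0 in the second. Btk, a kinase below the IgE receptor, averaged 4.03 ± 0.684 CPM in pre-MCS-01, 7.69 ± 2.43 CPM in post-MCS-01, 5.13 ± 1.82 CPM in DSCG and 4.78 ± 0.192 CPM in blank wounds. Among Kit signalling genes, Socs1, a feedback inhibitor of cytokine receptors, averaged 30.05 ± 5.65 CPM in pre-MCS-01, 47.5 ± 9.63 CPM in post-MCS-01, 20.5 ± 9.06 CPM in DSCG and 17.3 ± 1.71 CPM in blank wounds, with a post-MCS-01 difference from blank of 1.46 ± 0.32 (log2, adjusted p 0.0912). Stat5a, a transcription factor activated by Kit, averaged 22.4 ± 6.95 CPM in pre-MCS-01, 38.9 ± 2.41 CPM in post-MCS-01, 19.4 ± 5.33 CPM in DSCG and 23.6 ± 3.58 CPM in blank wounds. Spi1, which encodes the myeloid regulator PU.1, averaged 68.4 ± 9.68 CPM in pre-MCS-01 wounds and 124 ± 33.1 CPM in post-MCS-01 wounds. Mitf, used by mast cells and melanocytes alike, averaged 18.8 ± 4.94 CPM in pre-MCS-01 wounds and 13.0 ± 2.42 CPM in post-MCS-01 wounds.

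Of the genes that sense, carry or break down histamine, 0 of 7 tested passed in any comparison, with at most 4 at an unadjusted p under 0.05. Hrh2, a histamine receptor, averaged 0.839 ± 0.268 CPM in pre-MCS-01, 2.19 ± 0.436 CPM in post-MCS-01, 0.890 ± 0.704 CPM in DSCG and 0.888 ± 0.0879 CPM in blank wounds. For Hrh1, another histamine receptor, the means were 1.97 ± 0.416 CPM in pre-MCS-01, 3.82 ± 0.9752 CPM in post-MCS-01, 2.77 ± 0.368 CPM in DSCG and 2.71 ± 0.416 CPM in blank wounds, and Hrh3 and Hrh4 were too low to test, with 28 and 36 counts in all. In pre-MCS-01 against post-MCS-01 wounds, Hrh1 differed by -0.95 ± 0.29 and Hrh2 by -1.38 ± 0.49 on the log2 scale, with adjusted p of 0.241 and 0.343.

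Mast cell granule, receptor, lipid mediator and ligand lists gave the same count: 0 of 11, 0 of 14, 0 of 9 and 0 of 8 tested genes passed in each of the 6 comparisons, with at most 1, 4, 3 and 4 at an unadjusted p under 0.05. The protease and granule list had a median log2 fold change of -0.38 in pre-MCS-01 and 0.02 in post-MCS-01 wounds against blank, and its Tpsb2, a tryptase, averaged 42.9 ± 7.18 CPM in pre-MCS-01, 46.5 ± 15.2 CPM in post-MCS-01, 61.0 ± 25.8 CPM in DSCG and 52.1 ± 7.77 CPM in blank wounds. Il33, an alarmin that acts on mast cells, averaged 54.8 ± 14.02 CPM in pre-MCS-01, 144 ± 32.0 CPM in post-MCS-01, 39.7 ± 27.4 CPM in DSCG and 37.7 ± 8.24 CPM in blank wounds, and every post-MCS-01 wound was above the other 9. Its post-MCS-01 difference was 1.94 ± 0.49 from blank and 1.86 ± 0.49 from DSCG wounds on the log2 scale, with adjusted p of 0.163 and 0.129. Alox5, the lipoxygenase that starts leukotriene synthesis, differed by -1.26 ± 0.28 in pre-MCS-01 against post-MCS-01 wounds (adjusted p 0.0697), at 11.9 ± 0.490 CPM in pre-MCS-01 wounds and 28.4 ± 5.41 CPM in post-MCS-01 wounds. Csf2rb, a shared cytokine receptor chain, averaged 44.4 ± 23.4 CPM in pre-MCS-01, 84.5 ± 27.3 CPM in post-MCS-01, 26.4 ± 14.7 CPM in DSCG and 32.8 ± 10.5 CPM in blank wounds. Macrophage genes differed in the same direction, with a median log2 fold change of -0.89 over 11 tested genes in pre-MCS-01 against post-MCS-01 wounds and 0 called (5 at an unadjusted p under 0.05). Their summed level was 1318 to 1636 CPM in pre-MCS-01, 1795 to 3046 CPM in post-MCS-01, 1175 to 2486 CPM in DSCG and 1993 to 2054 CPM in blank wounds, and their part in these levels was not tested.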

How the data were processed

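Per the labels' protocols, wounds were flash frozen, total RNA was isolated (miRNeasy) and sequencing libraries followed the TruSeq RNA protocol; no strand setting is given. The authors deposited whole-number read counts per gene symbol, 1 table per library. The submitters' processing notes name FastQC, TopHat2, Bowtie2, HTSeq, limma and the mouse build mm10; versions and annotation are not given in the sources used here. The 5 summary lines were left out: reads not uniquely aligned (17.2 to 23.4% of the total), without a gene (4.34 to 6.81%) and ambiguous (0.956 to 1.35%). Reads of near-identical genes may have been lost in the first class.

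Libraries were grouped by the treatment label, and replicates numbered in accession order. All 12 entered 1 edgeR 4.0.16 model (R 4.3.3) with a mean per group, TMM scaling (factors 0.905 to 1.07), the default filter of filterByExpr and two-sided quasi-likelihood tests, adjusted by Benjamini-Hochberg over 16267 genes, called under 0.05; the biological coefficient of variation was 0.347. CPM used TMM-scaled totals, and log2 CPM a prior count of 2. Poisson and floor values (3 counts) cover counting error only. Alternatives were RLE and total-count scaling, no filter, DESeq2 1.42.0, limma 3.58.1 (voom, with and without quality weights), leaving out the 3 libraries low in long transcripts, each library in turn, and for correlations deviations from group means and a prior count of 0.5. Steps were tested on simulated data. The text names the 6 genes, for each the 5 genes with the most similar pattern, and from each list up to 5 genes with the smallest p in the joint test; Cpa3, Cma1, Mcpt4, Prss34, Hrh3 and Hrh4 were named outside that rule, after their values were seen. The 6 genes and the 17 lists were chosen with earlier results of these data known. Mrgprb13, Ly6g and Adgre1 of the lists had no row. Proteins were not used here.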

Additional observations from a re-analysis of the deposited data

How the results depend on the processing

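Of 684 alternative values of the 36 log2 fold changes, 34 turned in sign, over 13 of the 36, none of them called, and 6 were newly called, all with limma-voom and library quality weights. That test called 3 genes in pre-MCS-01 against blank, 3 in pre-MCS-01 against post-MCS-01 and 2 in the joint test, where edgeR called 0. It also turned Kit in pre-MCS-01 against blank (-0.0745) and against DSCG (-0.17), Mrgprb2 in post-MCS-01 against DSCG (-0.0212), and Hdc in DSCG against blank (-0.45) and in pre-MCS-01 against post-MCS-01 (2.06). Hdc in DSCG against blank was -0.46 with limma-voom alone. Fcer1a in pre-MCS-01 against blank was -0.0028 with RLE factors, -0.0588 with total-count scaling and -0.0102 without the filter. Without the 3 libraries low in long transcripts, Kit in pre-MCS-01 against DSCG was -0.10 and Hdc in pre-MCS-01 against post-MCS-01 was 0.0816.

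Leaving out 1 library at a time gave these ranges of log2 fold changes that crossed 0. Kit in pre-MCS-01 against DSCG ranged from -0.13 to 0.45. Fcer1a ranged from -0.21 to 0.13 in pre-MCS-01 against blank, -0.15 to 0.46 in post-MCS-01 against blank, -0.82 to 0.10 in DSCG against blank, -0.47 to 0.13 in pre-MCS-01 against post-MCS-01 and -0.10 to 0.85 in pre-MCS-01 against DSCG. Ms4a2 ranged from -0.0889 to 0.71 in post-MCS-01 against blank and -0.17 to 0.60 in pre-MCS-01 against DSCG. Mrgprb2 ranged from -0.50 to 0.0057 in pre-MCS-01 against DSCG and -0.0919 to 0.16 in post-MCS-01 against DSCG. Hdc ranged from -1.43 to 1.32 in DSCG against blank and -1.56 to 1.21 in pre-MCS-01 against post-MCS-01.

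Of 15 pairs of the 6 genes, 1 correlated under total-count scaling, and 0 to 1 when 1 library was left out (1 without pre-MCS-01 replicate 2 and 1 without DSCG replicate 3). Of 30 pairs with lists, 5 did under total-count scaling, 9 without the 3 libraries low in long transcripts, and 2 to 6 when 1 library was left out (2 without pre-MCS-01 replicate 2, 6 without DSCG replicate 2). The r of Hdc with the protease list was -0.0158 with a prior count of 0.5, -0.0409 within groups, -0.0996 without the 3 libraries and -0.245 without Srgn, and -0.187 to 0.362 when 1 library was left out. That of Kit was 0.176 within groups, 0.0304 without Srgn and -0.389 to 0.102 when 1 library was left out.

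Over all genes, the calls were 134 in pre-MCS-01 against post-MCS-01 with edgeR, 428 with DESeq2, 1 with limma-voom, 3818 with quality weights and 0 without the 3 libraries (0 to 254 leaving out 1). They were 172 in post-MCS-01 against DSCG with edgeR, 620 with DESeq2, 2 with limma-voom, 0 with quality weights and 0 without the 3 libraries (0 to 606 leaving out 1). Where edgeR called 0, DESeq2 called 68 in pre-MCS-01 against blank, 406 in post-MCS-01 against blank, 17 in pre-MCS-01 against DSCG and 566 jointly, and quality weights 2485, 827, 0 and 2189; without the filter edgeR called 37 in post-MCS-01 against blank. Leaving out DSCG replicate 1 gave 222 in post-MCS-01 against blank and 273 jointly. The cause was not tested in any of these. No paired analysis was possible because the labels give each mouse its own number and no number shared between groups. The alternatives were planned except the list without Srgn. With 3 wounds a group, intervals of Hdc were as wide as -0.16 to 4.99 (post-MCS-01 against blank, log2). Large as well as moderate differences in that gene could have been missed. Intervals of other genes left room as well, such as a fold of 0.815 to 3.55 for Ms4a2 in post-MCS-01 against DSCG.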
